A study of Mus musculus with 7 samples.

Results

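Irx1, Irx2, Pou3f4, Hhex and Etv1 encode transcription factors that are named with the α- and δ-cells of the pancreatic islet, the endocrine cells that work beside the insulin-secreting β-cells. They were taken as a named set of 5 genes by matching their Ensembl identifiers to GENCODE M21 symbols, and all 5 were among the 21899 genes listed in each count file. The study compared islets of second-generation (F2) male mice on a C57BL/6 J background whose grandmothers were injected late in pregnancy with dihydrotestosterone in benzyl benzoate and corn oil (androgen exposure, AE, labelled hyperandrogenism) or with the same vehicle (control). The exposed F1 sons were mated with unrelated wild-type females, so that the AE-F2 males themselves were never injected, and the breeding animals of both groups received a standard chow diet. The labels name 3 control and 4 hyperandrogenism samples. Only replicate 1 of the control group and replicate 4 of the AE group enter here, called the control library and the AE library, and the other 5 samples were not analysed here. The labels and methods do not give, for these samples, the age of the males or whether islets of several animals were pooled. Islets were freed with collagenase, picked by hand and could be kept in culture medium, so a library also holds RNA of whatever other pancreatic cells were carried over.

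In the islet, α-cells secrete glucagon and δ-cells secrete somatostatin, and each type keeps its own set of transcription factors. IRX1 and IRX2 are homeodomain proteins of the Iroquois family found in α-cells, and POU3F4 (also called BRN4) is a POU-homeodomain protein known as an activator of the glucagon gene. HHEX is a homeodomain repressor that δ-cells need in order to form and to make somatostatin, and it is also used in endothelium, liver, ducts and B cells. ETV1 is an ETS-domain activator of the PEA3 family, which the ubiquitin ligase COP1 marks for degradation, and it is not restricted to α- or δ-cells. Libraries of whole islets do not show which cell type a transcript came from.

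The study asks about DNA methylation, which acts at CpG dinucleotides. The count files hold no methylation, so the DNA before the genes is shown only as context for the factors. RefSeq start-site windows (GRCm38.p6) were found for 4 of the 5 genes, and 250 bases before each start were examined. Across 32851 such windows the median was 6 CpG dinucleotides. The Hhex window held 32, a number reached by 4.58% of windows, with a GC content of 76.0%. The Irx2 window held 19 (19.7% of windows held as many) and the Pou3f4 window 13 (31.5%). Etv1 has 2 start sites in the table, with 9 and 1 CpG dinucleotides, reached by 40.3% and 92.1% of windows. The Hhex, Irx2 and Pou3f4 sequences are printed because they span this range among the homeodomain genes. Each lies on the plus strand, ends before the first annotated exon of its gene, and has its CpG dinucleotides in capitals. The Irx2 stretch lies at chr13:72628570-72628819, the Hhex stretch at chr19:37434591-37434809 and the Pou3f4 stretch at chrX:110814129-110814279.
Irx2: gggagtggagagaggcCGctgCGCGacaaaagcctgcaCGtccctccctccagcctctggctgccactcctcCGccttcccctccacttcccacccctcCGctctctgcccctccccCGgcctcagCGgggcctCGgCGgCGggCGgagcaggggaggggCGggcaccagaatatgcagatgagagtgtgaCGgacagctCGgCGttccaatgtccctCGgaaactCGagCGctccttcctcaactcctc
Hhex: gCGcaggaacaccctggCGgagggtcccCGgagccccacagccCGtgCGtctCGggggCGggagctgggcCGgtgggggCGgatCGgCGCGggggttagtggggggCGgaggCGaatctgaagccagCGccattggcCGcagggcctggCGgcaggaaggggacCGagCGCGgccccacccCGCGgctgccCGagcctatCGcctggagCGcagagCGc
Pou3f4: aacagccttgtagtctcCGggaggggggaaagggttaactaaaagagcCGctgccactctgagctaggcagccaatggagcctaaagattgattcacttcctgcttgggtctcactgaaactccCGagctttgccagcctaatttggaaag
In the printed stretches the Hhex sequence carries 26 CpG dinucleotides in 219 bases, the Irx2 sequence 19 in 250 bases and the Pou3f4 sequence 3 in 151 bases. Most of the 13 in the whole Pou3f4 window thus lie past the first base that GENCODE M21 annotates as its exon.

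**Figure D1:**
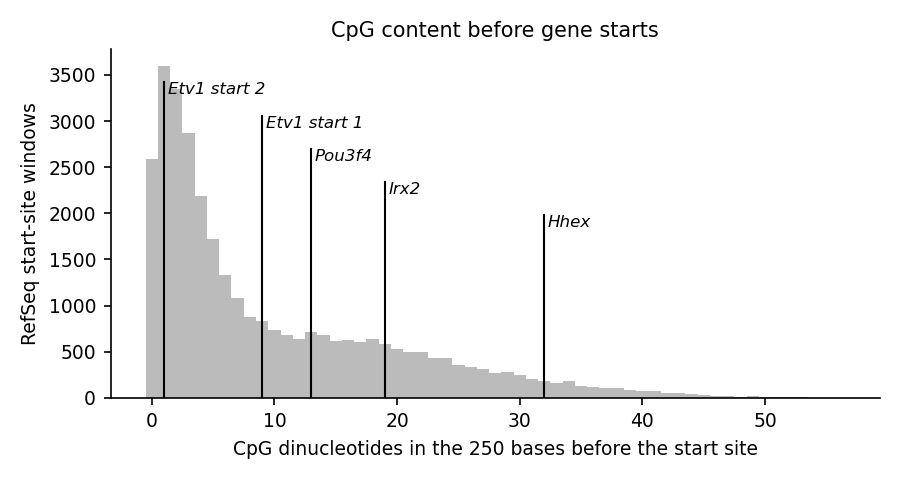
The horizontal axis gives the number of CpG dinucleotides in the 250 bases before a RefSeq start site, the grey bars count the 32851 windows of the mouse genome, and the black lines mark the windows of 4 factors. Hhex lies at 32 and Irx2 at 19, far above the median of 6, whereas the second Etv1 start lies at 1.

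Estimated counts summed to 16285888 in the control library and to 21278513, or 1.31 times as many, in the AE library. Levels are given in CPM, counts relative to a common library total after scaling with edgeR's TMM method, and the comparison is the log2 ratio of the AE library over the control library. Each ratio is followed by a 95% interval, derived by the Clopper-Pearson method from the split of a gene's counts between the libraries. It covers counting error only and leaves out the spread between animals, so with 1 library per group the values describe a pair of libraries rather than the effect of exposure, and no p-value was computed. Both libraries carried the hormones of an islet. Summed over Ins1, Ins2, Ppy, Pyy and Ghrl, the level was 180195 CPM in the control library and 178172 CPM in the AE library. Glucagon (Gcg) had 16025 and 22009 CPM, and somatostatin (Sst) 2887 and 2872 CPM.

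None of the 5 factors differed between the libraries by more than counting error. All 5 passed the minimum mean of 10 counts, 3 were higher in the AE library and 2 lower, and none was past 2-fold. Among the 13627 genes that passed this minimum, 3.2% were at least 2-fold higher and 0.646% at least 2-fold lower. The counting interval excluded equality for 26.8% of these genes and for 0 of the 5 factors. The summed level of the 5 factors was 116 CPM in the control library and 117 CPM in the AE library, a log2 ratio of 0.016 (-0.07 to 0.10).

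**Figure D2:**
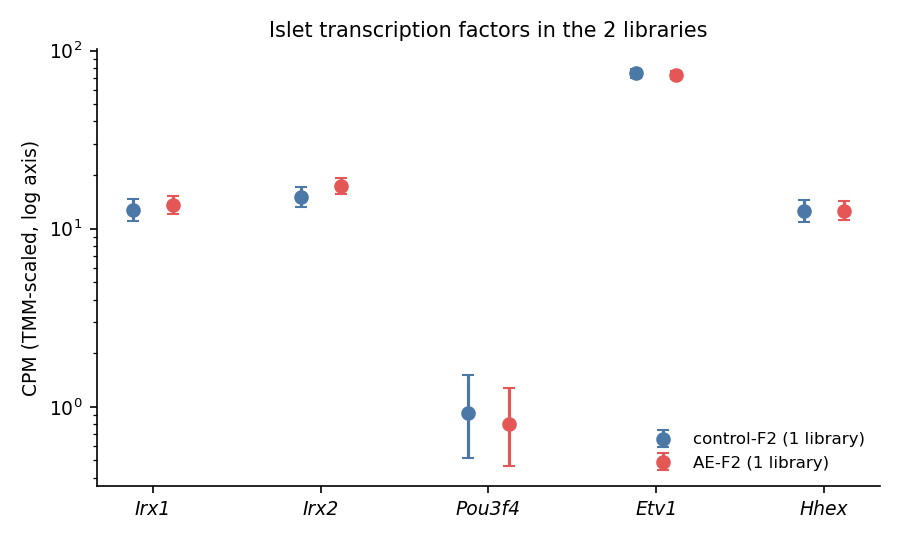
Points give the TMM-scaled CPM (log axis) of each factor in the control library (blue) and the AE library (red), and bars give the exact 95% Poisson interval of the count in that library. For every factor the intervals of both libraries overlap, from Pou3f4 near 1 CPM to Etv1 above 70 CPM.

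Irx1 (ENSMUSG00000060969), an α-cell Iroquois factor, had 208 counts in the control library and 289 in the AE library. Scaled to depth they were 12.8 and 13.6 CPM, a log2 ratio of 0.09 (-0.17 to 0.36). The AE-F2 value was the higher of the pair, by less than the counting error, and stood at 0.19 (-0.07 to 0.45) once the dependence of ratios on GC content and transcript length was subtracted. With 497 counts in all, a ratio of at least 1.21 or at most 0.828 would have been needed for an interval free of equality.

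Irx2 (ENSMUSG00000001504), its neighbour on chromosome 13, had 247 counts in the control library and 368 in the AE library. These were 15.1 and 17.3 CPM, and the log2 ratio of 0.19 (-0.04 to 0.43) was the largest increase among the 5 factors. Of the 13627 genes, 66.9% had a smaller absolute log2 ratio. With the same subtraction, the Irx2 ratio was 0.24 with an interval just above equality (0.0074 to 0.48). This was the only setting tried in which the interval of a factor's log2 ratio left equality.

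Irx1 and Irx2 kept the same proportion in both libraries within counting error. Irx2 held 54.3% of their summed counts in the control library (95% Wilson interval 49.7 to 58.8) and 56.0% in the AE library (52.2 to 59.8). Added together, they had 27.9 CPM in the control library and 30.9 CPM in the AE library, a log2 ratio of 0.15 (-0.03 to 0.32). The Iroquois genes that serve other tissues were nearly silent. Irx3 had 11 counts in the control library and 7 in the AE library, and Irx4, Irx5 and Irx6 had 0 in both. A limit of 3 counts, taken for a count of 0, is a level of 0.184 CPM in the control library and 0.141 CPM in the AE library.

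Pou3f4 (ENSMUSG00000056854) was barely detected. It had 15 counts in the control library and 17 in the AE library, or 0.92 and 0.80 CPM. The log2 ratio of -0.20 had an interval from -1.29 to 0.90, so that even a 2-fold change was not detectable at this depth. Only 4.0% of the genes tested had a lower mean count. Its paralogues, which act mainly in the nervous system and skin, were lower still. Pou3f1 had 1 and 3 counts, and Pou3f2 and Pou3f3 had 0 in both libraries.

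Hhex (ENSMUSG00000024986), the δ-cell factor, had 205 counts in the control library and 268 in the AE library. Scaled to depth, both libraries stood at 12.6 CPM. The log2 ratio was 0.005 (-0.26 to 0.27), and only 2.07% of the genes tested had a smaller absolute ratio. The interval leaves room for a ratio between 0.833 and 1.21. The other δ-cell genes also had intervals that included equality, though their ratios were not all as small. Sst had a log2 ratio of -0.007 (-0.02 to 0.01), Rbp4, which encodes the retinol carrier that marks mouse δ-cells, 0.06 (-0.03 to 0.16), and Ghsr, the ghrelin receptor, 0.11 (-0.36 to 0.58). HHEX is also used by B cells, ducts and endothelium, and markers of these cells were read beside it. All 7 B cell markers had an interval above equality, where 13.4% of all genes did. Their summed level was 14.8 CPM in the control library and 294 CPM in the AE library. Most of it was Cd79a (10.9 CPM) in the control library and the immunoglobulin gene Ighm (253 CPM) in the AE library. The 7 duct markers summed to 317 and 364 CPM, most of it Krt7 (247 and 292 CPM). Of the 6 duct markers tested, 3 had an interval above equality and 0 below. The 7 endothelial markers summed to 713 and 709 CPM, with 1 interval above equality and 1 below. Over all genes, 13.4% lay off equality in each direction. The part of these B cell, duct and endothelial markers in the Hhex value was not tested.

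Etv1 (ENSMUSG00000004151) was the strongest of the 5, and its counts were 1213 in the control library and 1545 in the AE library. It made up 64.2% of the counts of the 5 factors in the control library and 62.1% in the AE library. The levels were 74.4 and 72.7 CPM, a log2 ratio of -0.03 (-0.14 to 0.08). With 2758 counts in all, it was measured more finely than the others, and a ratio of at least 1.08 or at most 0.926 would have left equality.

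**Figure D3:**
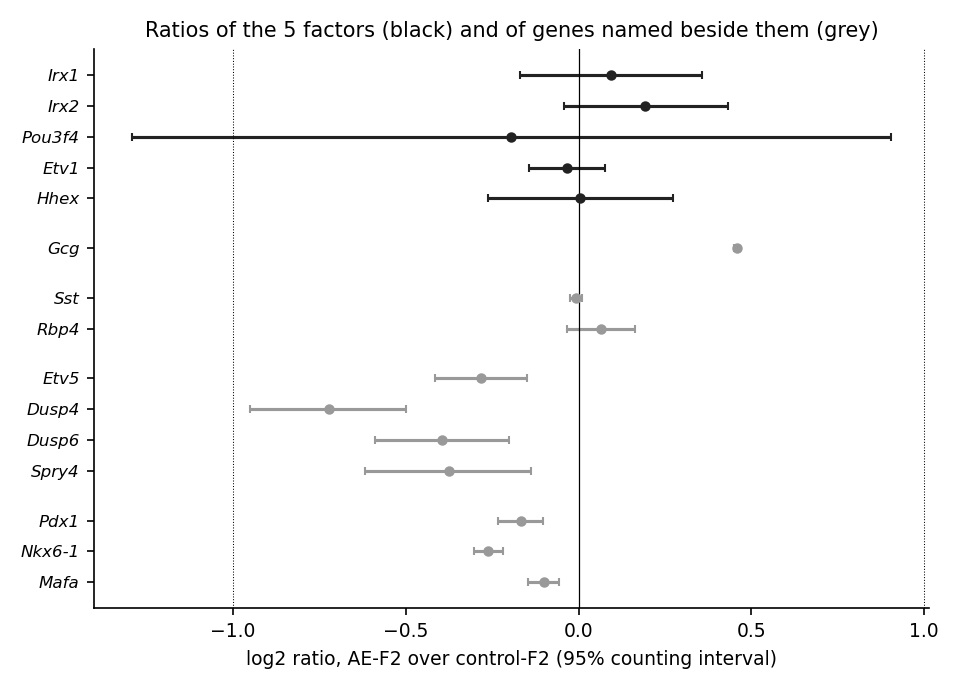
Points give the log2 ratio of the AE library over the control library, bars the 95% counting interval, the solid line equality and the dotted lines 2-fold. The 5 factors (black) have intervals that cross equality, whereas Gcg, Etv5, Dusp4, Dusp6, Spry4 and the β-cell factors Pdx1, Nkx6-1 and Mafa (grey) do not.

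While no difference was detectable for the Iroquois genes or Etv1, the α-cell hormone was higher in the AE library. Gcg had 261338 counts in the control library and 467676 in the AE library, a log2 ratio of 0.46 (0.45 to 0.46). In bulk islets a different number of α-cells and a different amount of a transcript per cell cannot be told apart. The number of factor counts per 1000 Gcg counts does not depend on how the libraries are scaled to each other. For Irx1 this number was 0.796 in the control library and 0.618 in the AE library, and the latter was 0.776 times the former (exact conditional 95% interval 0.647 to 0.932, counting error only). Irx2 went from 0.945 to 0.787 per 1000 (0.833 times, 0.707 to 0.982) and Etv1 from 4.64 to 3.30 (0.712 times, 0.660 to 0.768). For Pou3f4, at 0.0574 and 0.0364 per 1000, the interval from 0.298 to 1.36 included equality. These ratios carry the higher level of Gcg itself, since a gene at the same CPM in both libraries would stand at 0.728 times against it, and the intervals of all 4 factors include that value. They therefore show no change of a factor beyond its own log2 ratio.

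Of the 5 α-cell hormone and marker genes, 4 had an interval above equality, where 13.4% of all genes tested did, and their median log2 ratio was 0.17 beside 0.0007 over all genes. Besides Gcg these were Ttr (transthyretin, log2 ratio 0.17), Gc (vitamin D-binding protein, 0.07) and the amino acid transporter Slc38a5 (0.37). The intervals of Gc (0.0034 to 0.14) and Slc38a5 (0.02 to 0.73) began just above equality. Slc7a2, a carrier of basic amino acids, had 421 and 410 CPM, with an interval that included equality. Against these 4 genes in place of Gcg, partners chosen after the values were seen, 10 of the 12 ratios of Irx1, Irx2 and Etv1 had intervals that included 1. Only Etv1 against Ttr (0.866 times, 0.802 to 0.937) and against Slc38a5 (0.756 times, 0.583 to 0.976) lay below.

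For Hhex the matching quantity was close to equal in both libraries. There were 4.35 Hhex counts per 1000 Sst counts in the control library and 4.39 in the AE library, 1.01 times (0.837 to 1.22). Relative to Rbp4 it stood at 0.959 times (0.786 to 1.17). Whether Hhex relative to Sst differs from Irx1 relative to Gcg was not tested.

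**Figure D4:**
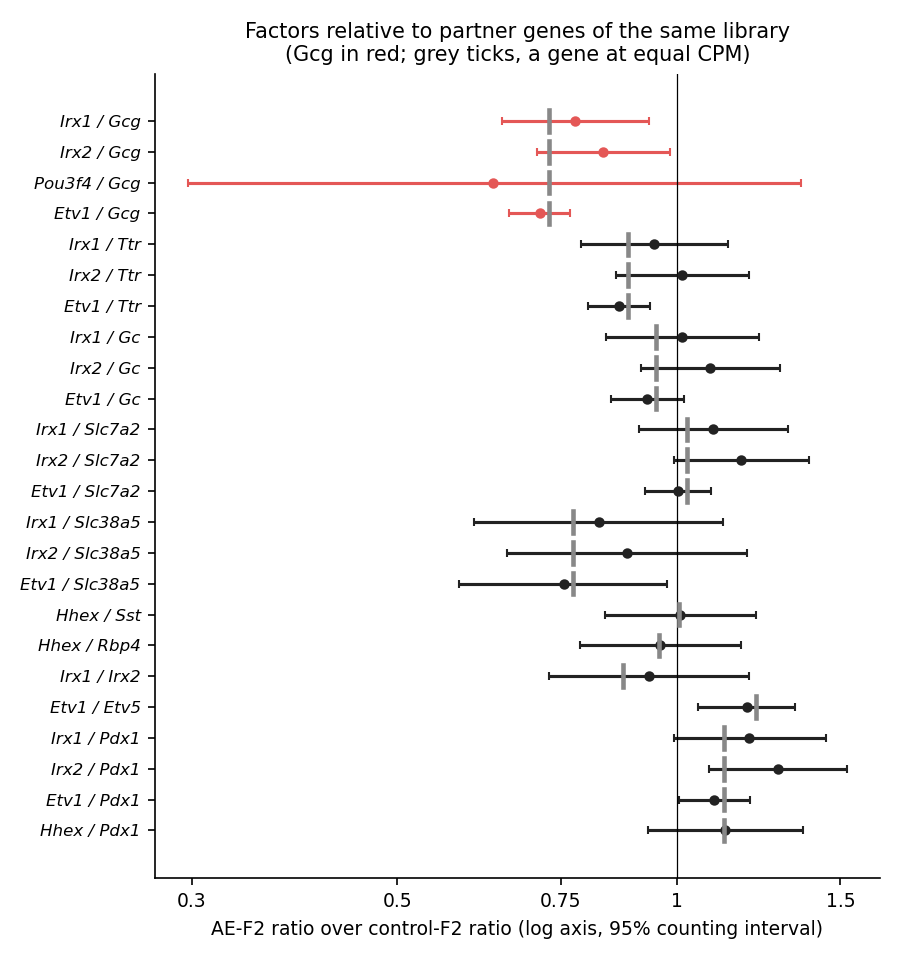
Each point is the ratio of a factor to a partner gene in the AE library divided by that ratio in the control library (log axis), with its exact 95% counting interval, and grey ticks mark where a gene at equal CPM in both libraries would lie against that partner. With Gcg as partner (red) the Irx1, Irx2 and Etv1 ratios lie below 1 but their intervals include the tick at 0.728, whereas for Hhex against Sst or Rbp4 and for Irx1 against Irx2 the intervals include 1. Etv1 against Etv5 and Irx2 and Etv1 against Pdx1 lie above 1.

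The interval of Etv1 included equality, whereas that of its paralogue Etv5 lay below. Etv5, an ETS factor of the same PEA3 family, had 897 counts in the control library and 961 in the AE library, or 55.0 and 45.2 CPM, a log2 ratio of -0.28 (-0.42 to -0.15). The ratio of Etv1 to Etv5 in the AE library was 1.19 times that in the control library (1.05 to 1.34). This interval includes 1.22, where a gene at equal CPM would stand against Etv5, and the pair was chosen after the values were seen. The third PEA3 gene, Etv4, had 1 and 6 counts. PEA3 factors act downstream of growth factor receptors and the kinase ERK, and a list of 9 genes commonly read as output of that route, Etv4 and Etv5 among them, was counted. Of its 8 genes tested, 7 were lower in the AE library and 4 of these had an interval below equality, where 13.4% of all genes did. The median log2 ratio was -0.27. Without Etv4 and Etv5, 6 of 7 were lower, 3 had an interval below equality and the median was -0.26. The ERK phosphatase genes Dusp4 and Dusp6 had log2 ratios of -0.72 (22.7 to 13.7 CPM) and -0.39 (26.9 to 20.4 CPM), and the feedback inhibitor Spry4 had -0.38. Spred1 (0.07) and Spred2 (-0.02), inhibitors of the same route, had intervals that included equality.

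The COP1 ligase and its partners, which limit the amount of ETV1 protein, were measured too. Of 8 genes, 1 had an interval above equality and 1 below, close to the 13.4% of all genes in each direction, and the median log2 ratio was -0.05. Cop1 itself had 64.6 CPM in the control library and 63.5 CPM in the AE library, a log2 ratio of -0.02 (-0.14 to 0.09). The adaptor Ddb1 was higher (0.14, 0.09 to 0.19). Trib1, a pseudokinase that brings substrates to COP1, was lower, from 97.2 to 65.2 CPM (-0.58, -0.68 to -0.47).

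Most β-cell factors were lower in the AE library. Of the 7 β-cell factors tested 6 were lower in the AE library and 4 had an interval below equality, where 13.4% of all genes did, with a median log2 ratio of -0.10. Pdx1, Nkx6-1 and Mafa had log2 ratios of -0.17, -0.26 and -0.10. The ratio of Irx2 to Pdx1 in the AE library was 1.28 times that in the control library (1.08 to 1.52) and that of Etv1 to Pdx1 1.10 times (1.00 to 1.20), where a gene at equal CPM would stand at 1.12. For Irx1 it was 1.20 times (0.993 to 1.45) and for Hhex 1.13 times (0.930 to 1.37), both with intervals that included equality. Of 15 tested factors shared by several endocrine types, 7 had an interval below equality and 1 above, where 13.4% of all genes did in each direction, and the median log2 ratio was -0.06. The single gene above was Nfia (0.55, 7.11 to 10.4 CPM), named after its value was seen. Isl1 (0.01) and Rfx6 (0.08), which all islet endocrine cells use, had intervals that included equality, whereas Pax6 (-0.14) and Insm1 (-0.24) were lower.

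Per kilobase of the longest annotated transcript, the 5 factors kept their order in both libraries. In the control library Etv1 had 11.3 CPM per kilobase, Irx2 5.77, Irx1 5.37, Hhex 3.22 and Pou3f4 0.314. In the AE library the values were 11.1, 6.60, 5.73, 3.23 and 0.273. Irx2 and Irx1 were the only neighbours in this order whose Poisson intervals overlapped, at 5.07 to 6.54 and 4.67 to 6.16 in the control library. With the mean transcript length in place of the longest, the order was the same and the Iroquois intervals no longer overlapped (13.1 to 16.9 for Irx2 and 9.01 to 11.9 for Irx1 in the control library). The factors of the much more numerous β-cells, Mafa (173 CPM per kilobase in the control library), Nkx6-1 (171) and Pdx1 (101), were higher than each of the 5 factors.

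**Figure D5:**
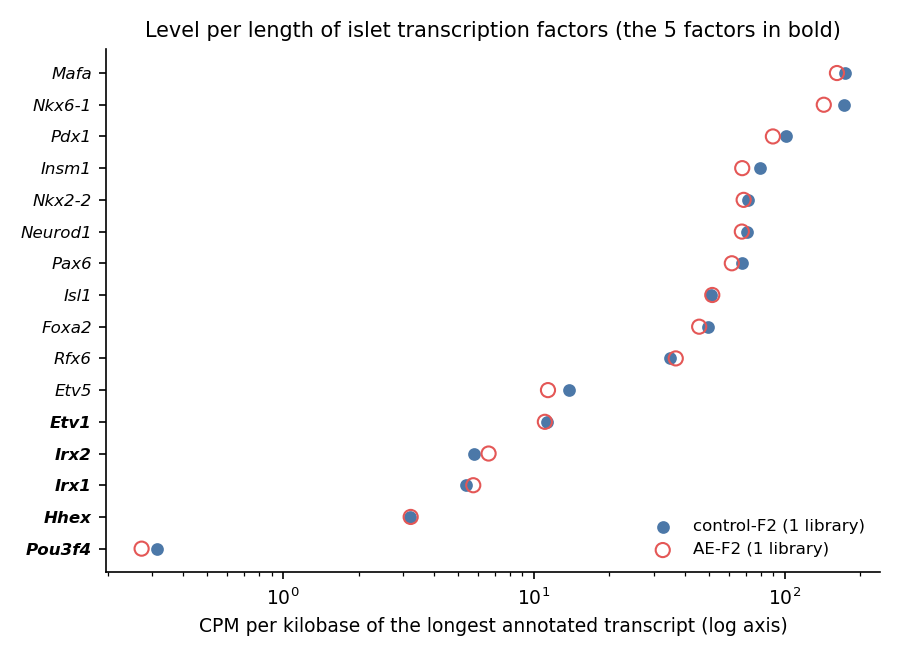
The horizontal axis gives CPM per kilobase of the longest annotated transcript (log axis), with filled blue points for the control library and open red points for the AE library. The 5 factors (bold) occupy the lower end, from Pou3f4 at 0.314 to Etv1 at 11.3 in the control library, and Mafa lies at the top.

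Markers of some other cells carried into the preparation differed between the libraries. The 7 mesenchymal markers had a summed level of 69.6 and 119 CPM, and 6 of them had an interval above equality, where 13.4% of all genes did. The 6 Schwann cell and nerve markers summed to 17.8 and 20.8 CPM, and all 5 of them that were tested had intervals that included equality. The 5 macrophage markers summed to 60.7 and 76.2 CPM, and without Lyz2, which went from 6.87 to 26.9 CPM, the other 4 summed to 53.8 and 49.3 CPM. The 7 acinar markers summed to 1160 and 853 CPM. All 5 of the acinar markers tested had an interval below equality, where 13.4% of all genes did. The 7 β-cell markers summed to 197624 and 198314 CPM, most of it from Ins1, Ins2 and Iapp, and 5 of the 7 had an interval below equality and 2, Ins1 and Iapp, above, where 13.4% of all genes did in each direction, with a median log2 ratio of -0.09. No defining marker of these lists was at 0 in both libraries. Whether they take part in the values of the 5 factors was not tested.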

How the data were processed

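RNA from islets of control-F2 and AE-F2 males was enriched for mRNA with oligo(dT) beads and sequenced on an Illumina instrument after preparation with a kit that does not mark strand. The paper's methods name HISAT2 for alignment, and the submitters' processing notes name Bowtie2, RSEM and DESeq2. The genome build and annotation are not given in the sources used here. The files deposited by the authors give an estimated count for each gene of a single library, with no scaling for depth or length. Values that differed at all from a whole number as written in the file, with no tolerance, made up 8.56% of the control file and 9.28% of the AE file.

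Symbols, transcript lengths and GC content came from GENCODE M21 (GRCm38), which holds 21806 of the 21899 identifiers. It has no gene that overlaps any of the 5 factors. The list symbol Tle5 was matched through its RefSeq synonym Aes. Counts were rounded and scaled with TMM (edgeR 4.0.16, R 4.3.3). A mean of 10 counts over both libraries was required, and 0.5 counts were added before taking log2. Intervals were computed with scipy 1.17.1. Where both libraries had 3 counts or fewer, no ratio was given. PCR copies are not independent molecules, so intervals and count limits cover counting error only. Some planned partner genes are not reported here.

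The 5 factors and all gene lists were chosen with earlier results of these data known. From each list the text names up to 6 of the most abundant genes, with every gene of the paralogue lists, and Spred1, Spred2, Insm1, Rfx6 and Isl1 stand as examples. No likeness of pattern was computed, because over 2 libraries every pair of genes correlates perfectly. Alternatives were other scalings, a pseudocount of 5, minimum means of 1 and 50 counts, a threshold of 1.5-fold, unrounded counts, removal of GC and length trends (loess, span 0.3), another transcript length and other partner genes.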

Additional observations from a re-analysis of the deposited data

How the results depend on the processing

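For each of the 5 factors, the log2 ratio stayed within its counting interval under the other scalings (library totals, DESeq2 size factors, totals without the 10 most abundant genes), a pseudocount of 5, unrounded counts and removal of GC and length trends. No scaling moved the median log2 ratio of all genes beyond 0.02. The numbers of genes past 2-fold (436 higher, 88 lower) were 1226 and 422 with a minimum mean of 1 count, 84 and 22 with a minimum of 50, and 849 and 293 past 1.5-fold, and a pseudocount of 5 left 45 lower. The median log2 ratio of the PEA3 genes was -0.033 in place of -0.16 once Etv4 was admitted by a minimum mean of 1 count. With the mean transcript length, levels per kilobase in the control and AE libraries were 10.4 and 11.1 for Irx1, 14.9 and 17.1 for Irx2, 5.28 and 5.30 for Hhex, and 30.8 and 30.1 for Etv1.

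The lower ratios to Gcg depended on the partner gene for most partners tried. Partners chosen after seeing the data turned the direction, to 1.20 (Irx1), 1.28 (Irx2) and 1.10 (Etv1) with Pdx1 and to 1.19 (Etv1) with Etv5. With the other genes of the α-cell list the ratios were 1.01, 1.09 and 0.929 (Irx1, Irx2, Etv1) against Gc, 0.945, 1.01 and 0.866 against Ttr, and 1.09, 1.17 and 1.00 (1.003) against Slc7a2. Against Slc38a5 they stayed low, at 0.824, 0.884 and 0.756, with intervals that included 1 for Irx1 and Irx2. The intervals of all the pairs of a factor and a partner gene included the value of a gene at equal CPM in both libraries. No paired analysis was possible because only 1 library of each group was analysed. Leaving out a library was not possible for the same reason. Depth limits Pou3f4 most, whose 32 counts in all could show only a ratio above 2.30 or below 0.460.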

Other observations

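HHEX represses genes together with co-repressors of the Groucho family, encoded by the Tle genes. Of 6 genes on this list, which also holds Pml, 1 had an interval above equality and 2 below, where 13.4% of all genes did in each direction, and the median log2 ratio was -0.04. Tle5, the most abundant, had 366 CPM in the control library and 370 CPM in the AE library, a log2 ratio of 0.02 (-0.03 to 0.06). Tle3 and Tle1 were lower, at log2 ratios of -0.18 each. Tle3 had 131 and 116 CPM, and Tle1 had 41.8 and 36.9 CPM. Pml, which encodes a nuclear body protein that binds HHEX, was higher at 0.16 (0.0093 to 0.32). Of the other genes listed beside the α-cell factors, the imprinted zinc finger gene Peg3 had 1363 and 1228 CPM, a log2 ratio of -0.15 (-0.18 to -0.12), and Fev had 8.46 and 7.72 CPM, with an interval that included equality.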
